A study of Homo sapiens with 29 samples.

Results

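The comparison described here is between empty-vector (EV) cells of batch 2 and EV cells of batch 1 in an RNA-seq series of EndoC-βH1 cells. EndoC-βH1 is an established human pancreatic β-cell line, made from fetal pancreas and immortalised with a viral large T antigen and telomerase, so it keeps dividing. Members were chosen from the labels alone, as every library labelled with EV medium in batch 1 or batch 2. They came to 6 of the 29 libraries in the series, 3 in each batch. No measured value entered that choice.

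All cells of the series were kept for 10 days in medium that HEK293 cells, a human embryonic kidney line, had conditioned for some hours. The conditioning lines stably carried the empty vector, CEL in its wild-type form or CEL in a mutant form, where CEL is the gene of carboxyl ester lipase, which acinar cells secrete to digest fat. Conditioned medium was filtered, brought to equal protein and renewed daily, so the EV cells of both batches also received medium from HEK293 cells, without the CEL transgene. Beside the 6 EV libraries stand the 7 libraries in wild-type CEL medium (WT; 4 of batch 1 and 3 of batch 2), the 7 in mutant CEL medium (MUT; 4 and 3) and the 3 EV libraries of batch 3. The labels number the EV libraries of batch 1 as 2, 3 and 4 and those of batch 2 as 1, 2 and 3, and values are given in that order throughout. What a batch shares is not stated in the labels, so culture, passage, medium preparation, RNA extraction and sequencing run cannot be told apart. Nor do the labels say that libraries of 1 batch came from separate cultures, so the p-values measure no more than the spread of the libraries, and that spread may be technical.

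A pancreatic β cell makes insulin, processes it in dense-core granules and releases it when glucose metabolism raises ATP and closes KATP channels. Its identity rests on a set of transcription factors that includes PDX1, NKX6-1, MAFA and NEUROD1, while amylin (IAPP) is secreted with insulin, and glucagon and somatostatin belong to the neighbouring α and δ cells. β-cell lines are also known to shift between a dividing state and a more differentiated one, and to depend on the endoplasmic reticulum (ER) chaperones that fold proinsulin.

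Summed estimated counts ran from 27028319 to 36725080 in the batch 1 libraries and from 33745529 to 39492162 in those of batch 2. Mitochondrially encoded RNA took 7.69% ± 0.604 (SD, n = 3) of the counts in batch 1 and 5.03% ± 0.227 in batch 2, without overlap. Libraries of 1 batch differed from each other by 4.5 to 9.74 times the sampling noise, so none was a copy of another. Defining β-cell markers were present in both batches, with INS at 10352 ± 1606 CPM (SD, n = 3) in batch 1 and PDX1, NKX6-1, MAFA, SLC30A8, G6PC2 and ABCC8 all expressed. Levels are CPM (counts scaled to a common library total), adjusted by trimmed means of M values (TMM) over all libraries. A gene is said to have risen or fallen where edgeR's quasi-likelihood test gave an adjusted p under 0.05 over all 20399 entries tested, and log2 fold changes are batch 2 over batch 1.

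Between the batches, 11977 of 20399 entries (58.7%) passed the test, of which 6211 (30.4% of those tested) were higher in batch 2 and 5766 (28.3%) were lower. Most differences were small. The number past the test and over 2-fold was 1807 (8.86%), 741 higher (3.63%) and 1066 lower (5.23%). In 13279 entries (65.1%) the 3 libraries of batch 2 all lay on 1 side of the 3 of batch 1, above them in 7096 (34.8%) and below in 6183 (30.3%). Counts of members below are to be read against these shares. Against a fold of 1.2 in place of no change, 6975 entries passed.

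IAPP had the highest log2 fold change among the genes named by the size rule. Its level was 5.58, 6.16 and 6.31 CPM in batch 1 and 79.5, 75.3 and 85.2 CPM in batch 2. Every batch 2 library was over 10 times higher than every batch 1 library, with a log2 fold change of 3.71 ± 0.071 (SE, adjusted p = 6.4e-10). Somatostatin (SST), the δ-cell hormone, followed the same course with 15.2, 16.4 and 14.2 CPM in batch 1 and 144, 151 and 149 CPM in batch 2. Its mean was 9.71-fold higher in batch 2. Insulin itself moved little: INS stood at 12081, 10068 and 8906 CPM in batch 1 and 11395, 13090.0 and 12694 CPM in batch 2. These ranges overlapped, and INS did not pass the test (0.24 ± 0.10 log2, SE, adjusted p = 0.061). It passed under 7 of the 18 other settings tried, total library size as the scaling and GC and length offsets among them. Fewer cells that express a gene and less RNA per cell cannot be told apart in these bulk libraries.

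The upstream window of SST is shown for the cAMP response element that lies in it. The sequence is from RefSeq (GRCh38.p14, chr3:187670395-187670644, minus strand, printed 5′ to 3′ along the gene), covers the 250 bases before the start of transcription, and has the element in capitals.
SST: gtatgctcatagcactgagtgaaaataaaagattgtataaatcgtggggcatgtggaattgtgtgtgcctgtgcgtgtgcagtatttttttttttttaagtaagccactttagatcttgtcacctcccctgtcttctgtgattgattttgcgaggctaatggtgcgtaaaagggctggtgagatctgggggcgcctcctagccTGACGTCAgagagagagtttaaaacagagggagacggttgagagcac
This element, TGACGTCA searched on both strands, occurs in 578 of 35116 such windows (1.65%). Of the 15 members with a window among 18 islet hormone genes and regulators, SST was the 1 gene that held it.

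Other granule and prohormone genes rose with IAPP. Of 25 members tested in a list of insulin, amylin and granule proteins, 16 rose and 3 fell, with a median log2 fold change of 0.48 where the median over all entries was 0.0023. VGF, a granule protein cut into secreted peptides, went from 32.5 ± 3.43 to 88.3 ± 5.04 CPM (mean ± SD, n = 3). PCSK1, the prohormone convertase that makes the first cuts in proinsulin, rose from 274 CPM to 544 CPM. SLC30A8, which loads zinc into insulin granules, rose by 0.55 ± 0.069 log2. G6PC2, the islet glucose-6-phosphatase, went the other way and held 410.3, 385 and 421 CPM in batch 1 and 81.3, 72.3 and 84.2 CPM in batch 2. It was 5.12-fold lower in batch 2 with no overlap, and G6PC2 was also low in batch 3, at 116 ± 1.53 CPM.

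**Figure D1:**
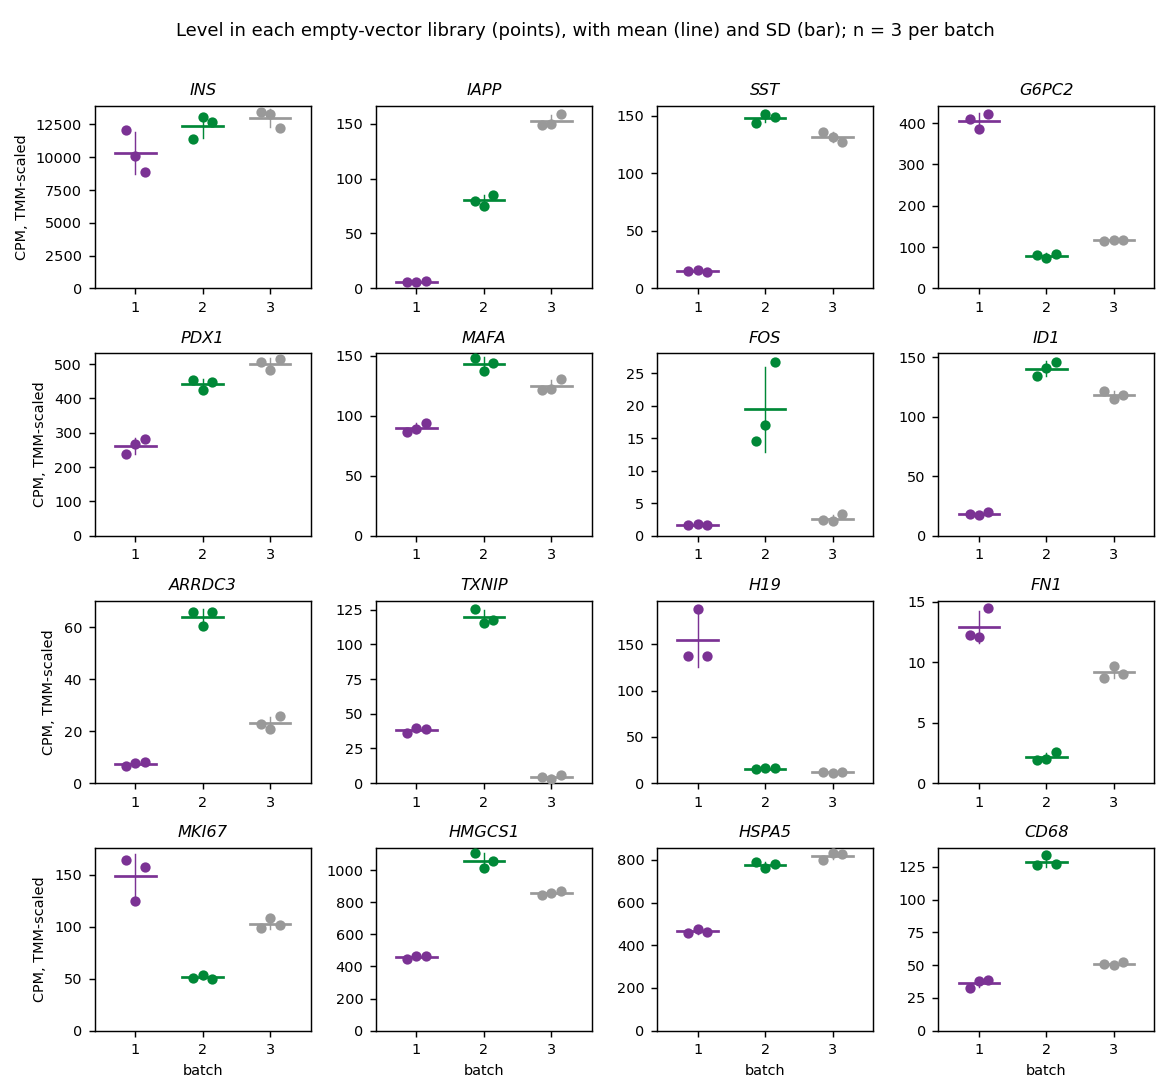
Levels in CPM (TMM-scaled, vertical axes from 0) of 16 genes in each EV library of batches 1, 2 and 3, with the mean as a line and the SD as a bar. IAPP, SST and ID1 are low in all batch 1 libraries and high in batches 2 and 3, while FOS is high in batch 2 alone and TXNIP falls from 119.6 CPM in batch 2 to 4.54 CPM in batch 3.

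Among the other islet hormones and their regulators the directions were mixed, 7 of 15 tested members higher and 4 lower. IRX2, an α-cell transcription factor, fell from 65.8 to 20 CPM. Glucagon (GCG) was scarce in both batches, at 1.12, 1.35 and 0.975 CPM in batch 1 and 0.564, 0.377 and 0.533 CPM in batch 2. It fell by 1.24 on the log2 scale. DPP4, a peptidase that inactivates incretins, rose by 0.86 ± 0.061 log2. The median log2 fold change of the list was -0.010.

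Of 29 β-cell transcription factors tested, 13 rose and 9 fell, and the median log2 fold change was 0.12. PDX1, the master regulator of the pancreas and of the INS gene, read 238, 266 and 283 CPM in batch 1 and 453, 425 and 448 CPM in batch 2. Its groups did not overlap, and its log2 fold change was 0.73 ± 0.062 log2. MAFA, an activator of INS in mature β cells, rose from 89.7 ± 3.91 to 143 ± 5.61 CPM. Smaller rises were seen for NKX6-1 (0.30 ± 0.046 log2) and NEUROD1 (0.19 ± 0.050 log2), of which NEUROD1 had a value of -0.0066 log2 once offsets removed the trend on GC content and length. FEV, ETV1 and PAX4 had changes of 1.98, 1.58 and 1.33 log2, from low starting levels of 0.783 to 5.06 CPM in batch 1. At the other end of the list, MLXIPL, which encodes the glucose sensor ChREBP, and GLIS3, an activator of INS, were at -0.75 and -0.53 log2. These 2 genes were picked after their values were seen.

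Genes of glucose sensing and excitability fell more often than they rose. Of 32 tested, 19 fell and 5 rose, with a median log2 fold change of -0.18 that was -0.066 with the GC and length offsets. RYR2, a calcium release channel of the ER, and TRPM5, a calcium-activated cation channel, fell most. RYR2 held 24.5, 17.2 and 25.2 CPM in batch 1 and 3.95, 4.81 and 4.19 CPM in batch 2. TRPM5 went from 24 ± 1.96 to 5.64 ± 0.685 CPM. Of the KATP channel subunits, KCNJ11 fell (-0.39 ± 0.060 log2), while ABCC8 showed overlapping batches and a log2 fold change of -0.031 ± 0.064 (SE, adjusted p = 0.70). ABCC8 changed sign under 4 settings and passed the test under 1 of them, the GC and length offsets, at 0.24 log2. The main β-cell glucose transporter of rodents, SLC2A2, did not pass either (0.12 ± 0.14 log2, adjusted p = 0.47). In the exocytosis machinery, 7 of 21 members rose and 8 fell. NSF, the ATPase that recycles SNARE complexes, rose by 0.64 ± 0.054 log2, and UNC13A, a vesicle priming factor, fell by 0.81 log2 (-0.42 with the offsets).

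The plot of all lists shows these counts beside the shares over all entries.

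**Figure D2:**
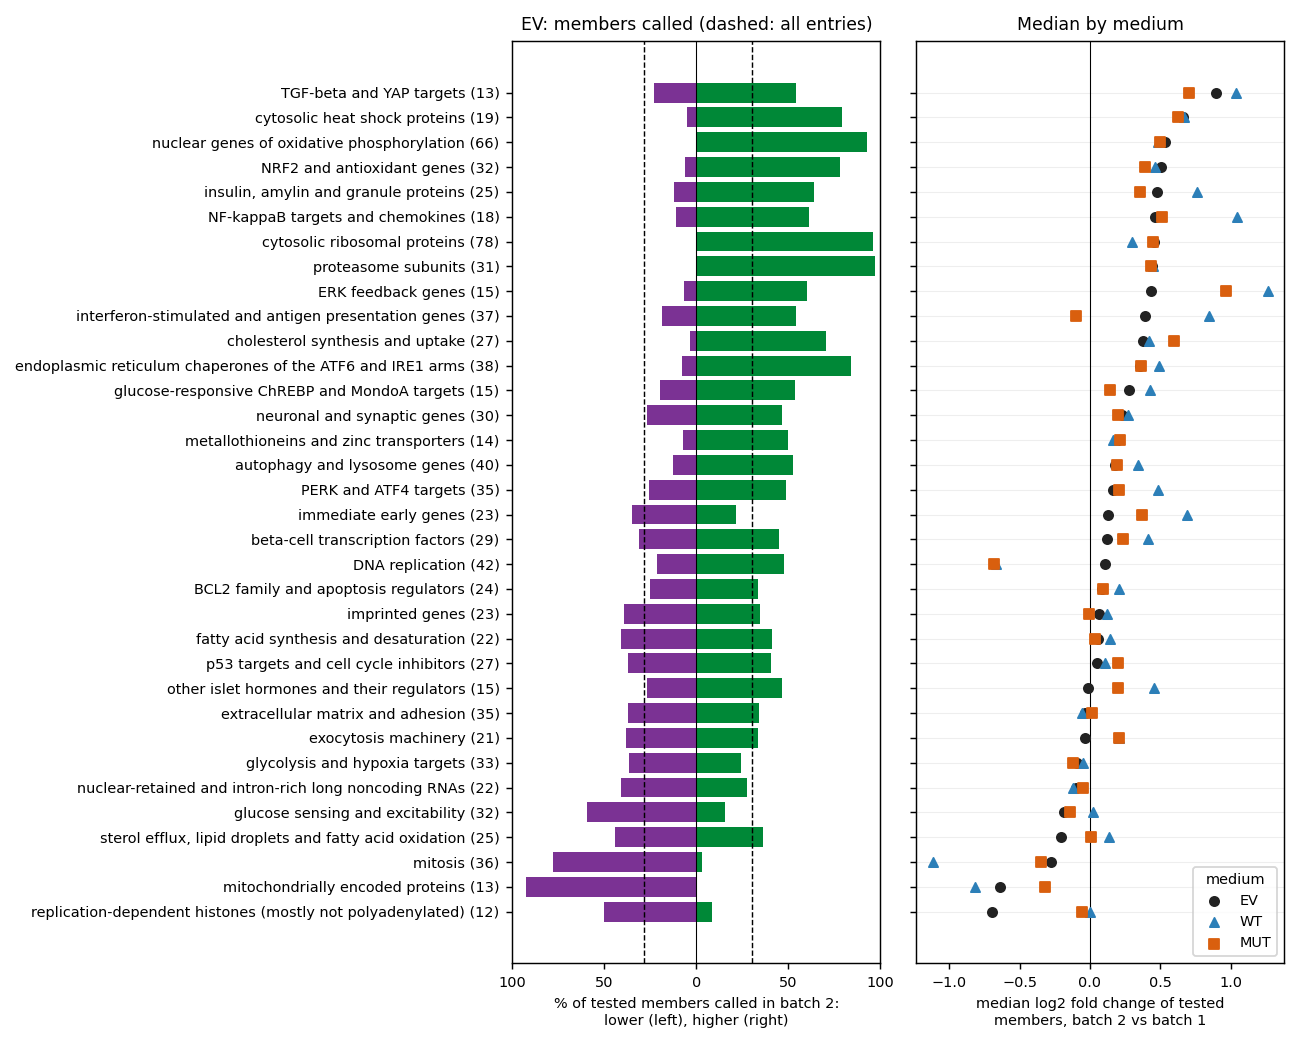
Left, the percentage of tested members of each list (number tested in brackets) that were called higher (right of 0) or lower (left of 0) in EV batch 2, with dashed lines at 30.4% and 28.3% for all entries. Right, the median log2 fold change of the members in EV, WT and MUT medium, batch 2 over batch 1: proteasome, ribosome and oxidative phosphorylation lists lie well above 0 in all 3 media, and DNA replication is above 0 in EV medium and below 0 in the other media.

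Among immediate early genes, the first transcripts made after a stimulus, FOS and EGR1 rose most and varied most. FOS was at 1.6, 1.73 and 1.6 CPM in batch 1 and 14.5, 17 and 26.8 CPM in batch 2. The third batch 2 library was the highest, and the lowest batch 2 library was still several times above every batch 1 library (3.55 ± 0.23 log2). EGR1 had 6.17, 7.11 and 6.74 CPM in batch 1 and 19.6, 28.2 and 54.7 CPM in batch 2, with the same library highest. JUNB, a partner of FOS in AP-1, rose evenly from 41.5 ± 0.675 to 90.7 ± 3.99 CPM. The list as a whole did not move 1 way, as 5 of 23 rose and 8 fell, among the latter JUND (-0.46 ± 0.048 log2) and PER1 (-0.61 ± 0.069 log2). With the GC and length offsets JUND had -0.27 and PER1 -0.32. In batch 3, FOS was at 2.62 ± 0.580 CPM and EGR1 at 9.79 ± 1.87 CPM (mean ± SD, n = 3), near the batch 1 levels.

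Feedback genes of the ERK pathway rose in 9 of 15 cases and fell in 1, with a median log2 fold change of 0.43. DUSP6, the phosphatase that switches ERK off, read 3.76, 3.68 and 4.39 CPM in batch 1 and 11.3, 10.9 and 12.6 CPM in batch 2. DUSP1 and ETV5 rose by 1.04 and 0.78 log2. Inhibitor of DNA binding (ID) genes, direct targets of bone morphogenetic protein and SMAD signalling, rose as well. ID1, an inhibitor of basic helix-loop-helix factors, was at 18.1, 17.3 and 19.6 CPM in batch 1 and 134, 141 and 147 CPM in batch 2. The ID1 mean was 7.67-fold higher in batch 2. ID3 rose by 2.10 ± 0.072 log2, and the inhibitory SMADs that close the loop rose as well, SMAD6 by 2.54 ± 0.12 log2 and SMAD7 by 2.29 ± 0.10 log2. In the list that holds them, 7 of 13 tested members rose and 3 fell, and the YAP targets ANKRD1 and CCN2 were among the 3 that did not pass.

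Mitosis genes fell as a group while DNA replication genes did not. Of 36 mitosis genes, 28 fell and 1 rose, with a median log2 fold change of -0.27. MKI67, the proliferation antigen, held 164, 125 and 157 CPM in batch 1 and 50.6, 53.7 and 50 CPM in batch 2. All 3 batch 2 libraries lay below the lowest batch 1 library, and the log2 fold change was -1.55 ± 0.090 log2. Kinetochore and spindle genes fell too, CENPF from 151 to 62.1 CPM and ASPM from 64.9 to 29.5 CPM. Of 42 DNA replication genes, in contrast, 20 rose and 9 fell, and the median log2 fold change was 0.11. MCM6, a subunit of the replicative helicase, rose from 182 ± 6.72 to 255 ± 4.28 CPM, and RPA2, which coats single-stranded DNA, rose by 0.59 ± 0.048 log2. E2F1, a driver of S-phase entry, and POLE, the leading-strand polymerase, fell by 0.61 and 0.63 log2. With the GC and length offsets, RPA2 had 0.33 and POLE -0.31. CDKN1A, which encodes the p21 inhibitor, rose by 0.64 ± 0.051 log2, while CDKN1C, the p57 inhibitor, fell from 131 to 70.1 CPM.

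In the WT and MUT libraries the replication list took the other direction. The interaction test asked whether the EV batch difference differs from the mean of the WT and MUT batch differences, over the 20 libraries of batches 1 and 2. It called 6608 of 21761 entries (30.4%), 3500 with a higher EV batch difference (16.1%) and 3108 with a lower one (14.3%). All 40 called of 42 replication genes were on the higher side. Their median log2 fold change was -0.67 in WT and -0.68 in MUT medium, where 0 members rose. Of the 42, 38 fell in WT, with 31.3% of all entries falling (32.7% rising), and 40 in MUT, with 26.4% falling (26.8% rising). RRM2, a subunit of the enzyme that makes deoxyribonucleotides, gives the levels: 184 and 231 CPM in EV batches 1 and 2, 196 and 85 in WT, and 223 and 101 in MUT. In batch 1 the 3 media thus lay close together, and in batch 2 EV stood above the others (interaction 1.5 ± 0.064 log2, adjusted p = 3.4e-12). Mitosis genes had median log2 fold changes of -1.12 in WT and -0.35 in MUT medium. By the interaction test, 31 of 36 had a higher EV batch difference and 0 a lower one. RRM2 was chosen after the interaction values were seen.

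**Figure D3:**
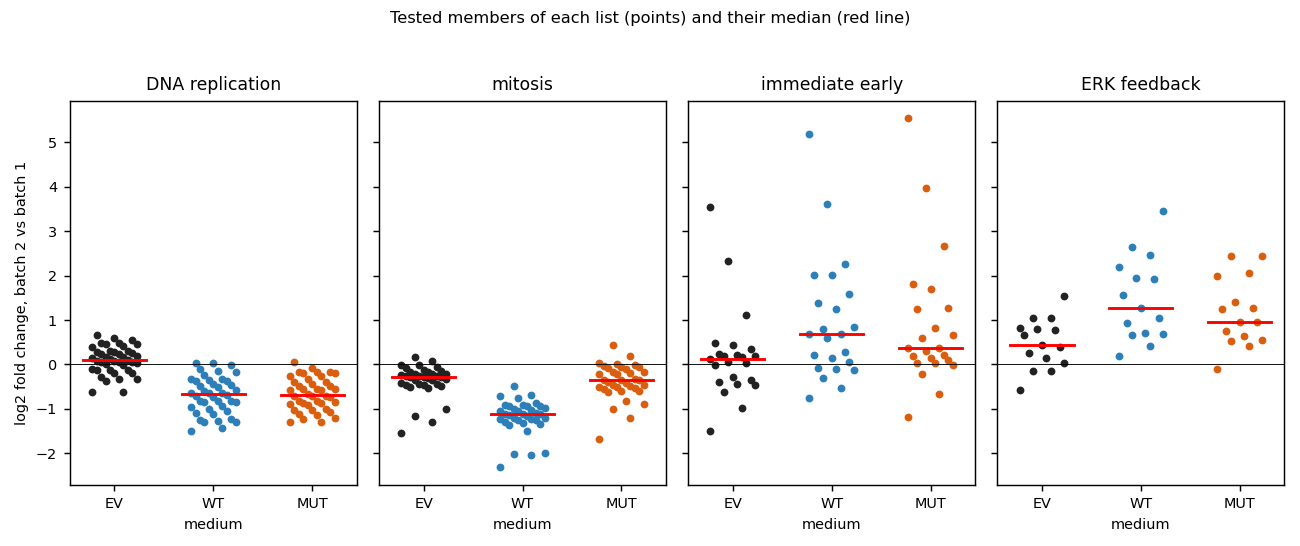
Log2 fold change of batch 2 over batch 1 (vertical axis) for each tested member (points) of 4 lists in EV, WT and MUT medium, with the median as a red line. DNA replication genes centre at 0.11 in EV and near -0.67 in WT medium, and immediate early and ERK feedback genes are lower in EV than in WT medium.

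ER chaperones and folding factors rose in 32 of 38 cases and fell in 3, with a median log2 fold change of 0.35 (0.22 with the GC and length offsets). HSPA5, the chaperone BiP and sensor of unfolded protein, was at 456, 478 and 459.7 CPM in batch 1 and 789, 760.3 and 781 CPM in batch 2. The groups lay far apart relative to their spread (0.72 ± 0.044 log2). CALR and PDIA3, which fold glycoproteins, rose by 0.72 ± 0.054 log2 and 0.64 ± 0.052 log2, and SDF2L1 by 0.86 ± 0.060 log2. DDIT3, which encodes the stress factor CHOP, fell from 23.1 ± 0.0843 to 19.1 ± 1.13 CPM. Targets of the PERK and ATF4 arm were mixed, 17 of 35 higher and 9 lower.

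Windows upstream of ER chaperone genes were searched for the ER stress response element, the site of ATF6, spelled CCAAT, 9 bases of any kind and CCACG, on both strands. Of 34 members with a RefSeq window, 6 held it (HSPA5, HSP90B1, CALR, CANX, CRELD2 and XBP1), against 26 of all 35116 windows (0.074%). The list was drawn up as chaperones of the ATF6 and IRE1 arms of the ER stress response. Its share of windows with an ATF6 site is therefore no independent result. All 6 of these genes rose, by 0.72, 0.39, 0.72, 0.35, 0.33 and 0.48 log2, where 32 of the 38 members of the list rose. HSPA5, HSP90B1, CALR and CRELD2 are shown so that the placement of the element, in capitals, can be compared, each with the 250 bases before the start, 5′ to 3′ along the gene. They lie at chr9:125241344-125241593 (minus strand), chr12:103930160-103930409 (plus), chr19:12938359-12938608 (plus) and chr22:49918384-49918633 (plus) of GRCh38.p14, in the order printed.
HSPA5: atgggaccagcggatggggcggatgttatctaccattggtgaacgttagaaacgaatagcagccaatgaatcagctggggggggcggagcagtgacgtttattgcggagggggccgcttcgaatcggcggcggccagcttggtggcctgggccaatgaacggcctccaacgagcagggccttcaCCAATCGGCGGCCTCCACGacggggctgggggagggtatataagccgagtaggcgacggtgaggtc
HSP90B1: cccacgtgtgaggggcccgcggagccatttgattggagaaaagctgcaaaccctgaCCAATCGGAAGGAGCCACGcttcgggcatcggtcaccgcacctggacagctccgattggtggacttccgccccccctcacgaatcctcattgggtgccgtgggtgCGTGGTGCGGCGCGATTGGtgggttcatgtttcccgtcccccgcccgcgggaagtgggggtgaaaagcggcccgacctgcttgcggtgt
CALR: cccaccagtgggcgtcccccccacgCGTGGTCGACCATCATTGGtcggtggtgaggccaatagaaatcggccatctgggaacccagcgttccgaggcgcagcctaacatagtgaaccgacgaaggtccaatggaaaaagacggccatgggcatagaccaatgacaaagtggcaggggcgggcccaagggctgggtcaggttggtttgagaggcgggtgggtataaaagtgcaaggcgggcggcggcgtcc
CRELD2: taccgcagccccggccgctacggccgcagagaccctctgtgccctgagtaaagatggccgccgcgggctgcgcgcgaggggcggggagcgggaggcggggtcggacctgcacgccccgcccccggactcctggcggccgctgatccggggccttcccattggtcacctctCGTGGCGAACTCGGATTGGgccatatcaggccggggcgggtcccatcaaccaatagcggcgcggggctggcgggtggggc
A match describes the letters of the window and does not show binding.

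Cytosolic heat shock proteins rose in 15 of 19 cases and fell in 1 (median log2 fold change 0.66). HSP90AA1, the inducible HSP90, had 1476, 1604 and 1482 CPM in batch 1 and 3414, 3007 and 3206 CPM in batch 2. Each batch 2 library was well above every batch 1 library. Its co-chaperone AHSA1 rose by 0.92 ± 0.043 log2 and STIP1, which links HSP70 to HSP90, by 0.77 ± 0.041 log2. The heat shock element (GAA, 2 bases, TTC, 2 bases, GAA, both strands) was found in 2 of 20 windows of this list and in 0.441% of all windows. The 2 genes were HSPA8, the constitutive HSP70, which rose by 0.88 log2, and CHORDC1, which did not pass (-0.067 log2). HSPA8 held it at 2 places, in capitals below (chr11:123062137-123062386, minus strand).
HSPA8: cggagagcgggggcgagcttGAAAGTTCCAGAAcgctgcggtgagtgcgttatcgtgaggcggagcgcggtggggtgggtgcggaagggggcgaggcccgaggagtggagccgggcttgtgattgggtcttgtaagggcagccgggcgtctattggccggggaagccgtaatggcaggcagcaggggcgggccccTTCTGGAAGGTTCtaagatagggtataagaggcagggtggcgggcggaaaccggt

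Machinery of protein turnover and energy moved in blocks. Of 31 proteasome subunits, 30 rose and 0 fell (median log2 fold change 0.44), with PSMB3 going from 28.1 to 58.8 CPM. Of 78 cytosolic ribosomal proteins, 75 rose and 0 fell (median log2 fold change 0.45), RPS18 from 272 to 542 CPM. Of 66 nuclear genes of oxidative phosphorylation, 61 rose and 0 fell (median log2 fold change 0.53), ATP5MC1, a proton-ring subunit of ATP synthase, by 1.05 ± 0.069 log2. The 13 mitochondrially encoded proteins went the other way, 12 lower and 0 higher (median log2 fold change -0.64), with MT-ND4 at 13302, 11683 and 12366 CPM in batch 1 and 7973, 7293 and 7148 CPM in batch 2. MT-ND4 did not overlap between batches. Over entries with a known sequence (n = 18641), the log2 fold change had Spearman correlations of -0.175 with GC content and -0.124 with length. GC content and length were those of the longest transcript of each gene. With offsets for both, the log2 medians were 0.30, 0.32, 0.35 and -0.87, in the order given. How far RNA quality or library composition enters these blocks beyond that was not tested.

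Cholesterol synthesis genes rose in 19 of 27 cases and fell in 1, with a median log2 fold change of 0.38. HMGCS1, the enzyme that commits acetyl units to the mevalonate pathway, was at 449, 464 and 463 CPM in batch 1 and 1106, 1014 and 1059 CPM in batch 2. It was 2.31-fold higher in batch 2 without overlap. MSMO1, a sterol demethylating enzyme, rose by 1.12 ± 0.059 log2, and FDPS, which makes farnesyl diphosphate, by 0.59 ± 0.040 log2. Fatty acid synthesis was split, 9 of 22 higher and 9 lower. There, ME1, the NADPH-making malic enzyme, rose by 2.44 ± 0.18 log2, and SREBF1, the lipogenic transcription factor, fell by 0.73 log2. CPT1A, the gate of mitochondrial fatty acid oxidation, fell from 36.3 ± 1.15 to 16.3 ± 0.624 CPM and stood at 4.7 ± 0.725 CPM in batch 3.

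Glucose-responsive targets of ChREBP and MondoA were led by ARRDC3 and TXNIP, relatives in the α-arrestin family, 8 of 15 tested members rising and 3 falling. ARRDC3 had 6.47, 7.87 and 8.04 CPM in batch 1 and 65.9, 60.5 and 65.8 CPM in batch 2, and TXNIP had 36.3, 39.5 and 38.9 CPM in batch 1 and 125, 115 and 118 CPM in batch 2. TXNIP was separated without overlap, which for ARRDC3 was a condition of its being named. PKLR, the pyruvate kinase of liver and β cell, rose by 1.15 ± 0.077 log2, and ARRDC4 by 0.76 ± 0.049 log2. Of 33 glycolysis and hypoxia genes 8 rose and 12 fell. LDHA, a lactate dehydrogenase that mature β cells keep low, dropped from 164 ± 20.8 to 54.1 ± 1.86 CPM, and VEGFA, the endothelial growth factor induced by hypoxia, fell by 0.71 log2 (-0.24 with the GC and length offsets).

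Antioxidant genes under NRF2 rose in 25 of 32 cases and fell in 2 (median log2 fold change 0.51). NQO1, a quinone reductase and standard NRF2 target, went from 6.28 ± 0.589 to 22.7 ± 0.600 CPM, and SOD1 and TXN rose by 1.01 ± 0.045 log2 and 1.08 ± 0.071 log2. Of 37 interferon-stimulated and antigen presentation genes, 20 rose and 7 fell. OAS1, an antiviral RNA sensor, read 8.55, 7.33 and 8.64 CPM in batch 1 and 19.3, 20.1 and 18.8 CPM in batch 2, a rise of 1.23 log2. NFKBIA, the inhibitor that NF-κB itself induces, rose by 1.07 ± 0.043 log2, and 11 of 18 NF-κB targets rose while 2 fell. HLA-B was under 1.5 CPM in every EV library and did not pass (0.39 ± 0.38 log2, adjusted p = 0.40). Reads of HLA-B can be assigned to alternative-haplotype entries, so its value is uncertain.

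H19 of the imprinted list and FN1 of the matrix list were among the 10 lowest log2 fold changes, though neither list moved 1 way. H19, a maternally expressed long noncoding RNA (chromosome 11, 1995176 to 2001470, GENCODE 29 on GRCh38), held 137, 188 and 138 CPM in batch 1 and 14.9, 15.9 and 15.9 CPM in batch 2. It was 9.94-fold lower in batch 2, and again low in batch 3 at 11.6 ± 0.786 CPM. Its neighbour IGF2, the growth factor expressed from the other allele, fell by 0.38 log2. The maternally expressed MEG3 did not pass (-0.12 ± 0.049 log2, adjusted p = 0.060). MEG3 passed as lower under 7 of the 18 other settings, DESeq2 and limma voom among them. With the GC and length offsets it turned to 0.23 log2 and passed as higher. In the list, 8 of 23 tested members rose and 9 fell. FN1, the matrix protein fibronectin, had 12.2, 12.1 and 14.4 CPM in batch 1 and 1.87, 2 and 2.56 CPM in batch 2. LAMB2, a laminin chain, and TIMP3, a matrix protease inhibitor, fell by 2.24 and 1.47 log2, while TIMP2 rose by 0.94 ± 0.042 log2. The matrix list held 12 higher and 13 lower of 35.

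The remaining genes with extreme changes belonged to no single group. NXPH4, a secreted neurexin ligand, had a log2 fold change of -3.64 ± 0.16 (SE, adjusted p = 9.1e-08), from levels of 27.1, 39.9 and 28.8 CPM in batch 1 to 2.5, 2.67 and 2.64 CPM in batch 2. Trefoil factor TFF1, apolipoprotein APOA4, fast troponin TNNT3 and α-actinin ACTN3 fell by 3.02, 3.04, 3.01 and 2.43 log2. BHLHE40, a circadian and hypoxia-responsive repressor, fell from 24.7 ± 6.57 to 3.34 ± 0.265 CPM, and TNFRSF14, a receptor of the TNF family, from 38.3 ± 2.25 to 7.16 ± 0.643 CPM. Of 22 nuclear-retained long noncoding RNAs tested, 6 rose and 9 fell, with a median log2 fold change of -0.10 (-0.045 with the GC and length offsets). MIAT fell by 2.82 and NEAT1, the scaffold of paraspeckles, by 2.02 log2. On the higher side were the membrane-binding annexin ANXA2 (3.09 ± 0.11 log2), the copine CPNE4 (3.06 ± 0.070 log2) and LINC02593 (2.31 ± 0.12 log2). The rule that picked the genes with the most extreme changes asked for batches without overlap, so their lack of overlap is no result.

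Markers of other cell types were summed in each EV library. Acinar markers came to 53.7 to 59.7 CPM in batch 1 and 39.6 to 42.6 CPM in batch 2, mostly from CPA1, and 9 of 23 were at 0 in all 6 libraries, the trypsinogens PRSS1 and PRSS2 among them. CEL itself was at 2.42, 2.22 and 1.49 CPM in batch 1 and 3, 4.12 and 3.4 CPM in batch 2. Endothelial markers summed to 4.27 to 5.8 and 4.81 to 4.96 CPM, with KDR at 0. Mesenchymal markers summed to 16.3 to 18.6 and 9.77 to 11.7 CPM, and duct markers, mostly KRT19 and ANXA4, to 109 to 113 and 116 to 117 CPM. Markers of the medium-conditioning HEK293 cells summed to 532 to 565 and 603 to 689 CPM, nearly all of it CD24, with HOXA9 and HOXD10 at 0. The sum thus follows CD24, which rose by 0.27 log2. CD24 lost its call with the GC and length offsets (0.050 log2, adjusted p = 0.281) and against a fold of 1.2. Of the 7 tested members of this list 3 rose and 4 fell, and NEFL, a neurofilament chain, went from 0.0271 to 0.441 CPM. Immune markers rose in sum from 34.8 to 39.8 CPM to 128 to 137 CPM. Nearly all of that was CD68, a lysosomal glycoprotein, while the leukocyte antigen PTPRC stayed at or under 0.0594 CPM in each of the 6 libraries.

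Batch 2 over batch 1 was also measured in the WT and MUT libraries, none of which enters the EV comparison. There 13181 of 20585 entries (64%) passed in WT and 10872 of 20435 (53.2%) in MUT medium. Among 19832 entries tested in all 3 media, the log2 fold changes of EV correlated with those of WT at r = 0.718 and with those of MUT at r = 0.622, over genes, which are not independent replicates. Of the 11827 entries called in EV there, 8690 (73.5% of the EV calls and 67.3% of the WT calls) were called in the same direction in WT, and 7118 (60.2% and 66.4%) in MUT. In both other media at once the number was 6516 (55.1% of the EV calls), and the interaction test called 1943 of these. SST is an example of a like difference, with log2 fold changes of 3.26 in EV, 3.77 in WT and 3.15 in MUT (interaction adjusted p = 0.13). So is HSPA5, with 0.72, 0.76 and 0.69 log2. IAPP rose in all 3 media, with log2 fold changes of 4.68 in WT and 3.74 in MUT, and its EV change was the smaller by 0.49 log2 against their mean (adjusted p = 0.00055).

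**Figure D4:**
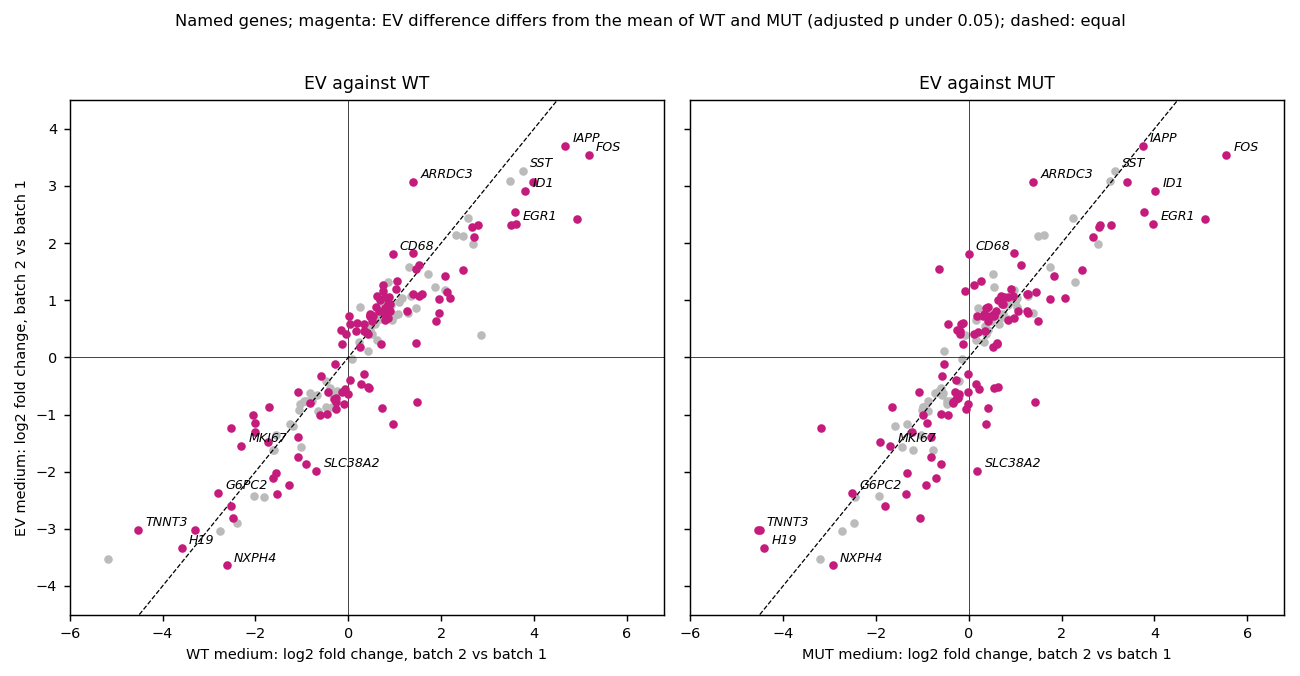
Log2 fold change of batch 2 over batch 1 in EV medium (vertical axis) against that in WT medium (left) and MUT medium (right) for the named genes. Magenta points passed the interaction test, the dashed line marks equal change, and most points lie to the lower left and upper right of the origin: FOS, at log2 fold changes of 3.55 in EV and 5.55 in MUT medium, lies far to the right of the line and ARRDC3 far to the left.

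Some batch differences were much larger in EV medium than in the others. ARRDC3 rose by 3.07 in EV but by 1.40 in WT and 1.39 log2 in MUT (interaction 1.69 ± 0.13 log2, adjusted p = 5.5e-09). CD68 went from 36.3 ± 3.11 to 129 ± 4.45 CPM in EV, from 31.3 to 61 CPM in WT, and stayed at 37.1 and 37.2 CPM in MUT (interaction 1.34 ± 0.076 log2). SLC38A2, an amino acid transporter induced by amino acid shortage, was at 167, 171 and 189 CPM in batch 1 and 46.4, 43.3 and 45.7 CPM in batch 2. In WT medium SLC38A2 also fell, from 146 to 91 CPM. In MUT medium SLC38A2 was at 184 CPM in batch 1 and 210.1 CPM in batch 2, in EV batch 3 it was at 163 ± 5.33 CPM, and the interaction was -1.72 ± 0.10 log2 (adjusted p = 1.6e-10). Further transporters with a lower EV batch difference, SLC6A6 for taurine (-1.51 ± 0.079 log2), SLC17A9 for vesicular nucleotides (-1.63 ± 0.16 log2) and SLC3A1 for dibasic amino acids (-1.70 ± 0.28 log2), were picked after their interaction values were seen.

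Other batch differences were smaller in EV medium than in 1 or both of the others. FOS rose from 1.64 to 19.5 CPM in EV, and from 1.82 to 67 CPM in WT and from 1.32 to 62.4 CPM in MUT (interaction -1.81 ± 0.28 log2). All 17 called of 23 immediate early genes, all 11 called of 15 ERK feedback genes and all 14 called of 29 β-cell transcription factors were on the lower side of the interaction, where 14.3% of all entries lay. ID1 reached 253 CPM in WT batch 2 and 289.5 CPM in MUT batch 2, against 141 CPM in EV. IFI6, an interferon-stimulated gene picked after its value was seen, stood at 52.9 and 55.4 CPM in EV at 50.6 and 606 CPM in WT and at 54.9 and 37.3 CPM in MUT (interaction -1.45 ± 0.063 log2). PTGS2, the inducible cyclooxygenase, was likewise picked afterwards. It went from 292 to 266 CPM in EV, from 270 to 693 CPM in WT and from 324 to 813 CPM in MUT.

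Batch 3 of the EV cells shows where a further batch lay, and only levels are given, since any comparison with it would share libraries. For the 11977 entries called between batches 1 and 2, the batch 3 mean lay beyond the batch 2 mean in 20% and between the means but nearer to batch 2 in 39.5%. It lay between them but nearer to batch 1 in 27.9% and beyond batch 1 in 12.6%. Of the 20 genes named for size, 5 lay beyond batch 2, 12 between and nearer to batch 2, and 3 between and nearer to batch 1. IAPP was highest in batch 3 at 152 ± 5.34 CPM (mean ± SD, n = 3), and PDX1 stood at 501 ± 16.6 CPM. SST and ID1 were close to batch 2, at 132 ± 4.33 and 118 ± 3.06 CPM. FN1 was at 9.16 ± 0.505 CPM and MKI67 at 103 ± 4.99 CPM, both between the first 2 batches and nearer to batch 1 on the log scale. TXNIP, at 4.54 ± 1.21 CPM, lay below both.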

How the data were processed

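Poly-A RNA of EndoC-βH1 cells was sequenced in 29 libraries, and the deposited table gives estimated counts per gene entry for each library. The authors made these estimated counts with fastp and kallisto, per the submitters' processing notes; their versions, the genome build and the annotation were not given in the sources used here. Of the values, 24.1% were not whole, and all were rounded. Names came from a gene table for 42000 of 66025 entries, and 885 tested entries shared all values with another. Entries were kept by edgeR's filterByExpr, scaled by TMM and tested with edgeR 4.0.16 (quasi-likelihood, R 4.3.3, Benjamini-Hochberg adjustment over all entries tested), the EV comparison over its 6 libraries (4 residual degrees of freedom) and the interaction over 20 (14). An SE is the log2 fold change divided by the root of F. Summed counts of the 20 libraries ran from 27028319 to 40246537, and an estimated count carries assignment error beyond sampling. The fits were tested on simulated data.

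The libraries were taken by their labels, while the 40 lists and the fixed genes were written with earlier results of these data known. Named genes were the 10 highest and 10 lowest log2 fold changes (adjusted p under 0.05, at least 5 CPM on average, no overlap, Y-linked genes left out), up to 4 members of each list by smallest p, and fixed genes, 175 in all. Other names were picked after their values were seen. Alternatives were other scalings, filters, tools (DESeq2 1.42.0, limma 3.58.1), a replicate block, offsets for GC content and length, a test against a fold of 1.2, all 29 libraries in 1 fit, and each library left out. Promoter windows are RefSeq's (GRCh38.p14). Gene coordinates are those of GENCODE 29 on GRCh38, matched by gene identifier.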

Additional observations from a re-analysis of the deposited data

Results flagged for a closer look

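The EV batch difference differed from the mean of the WT and MUT batch differences in 6608 entries by the interaction test, and in 25 of the 40 genes looked at one by one. Hormone and β-cell genes with a lower EV batch difference were IAPP (-0.492), NEUROD1 (-0.186), KCNJ11 (-0.266) and GLP1R (-0.76), all on the log2 scale. Those with a higher EV batch difference were INS (0.378), G6PC2 (0.295) and GCG (1.63), of which INS did not pass in EV alone. G6PC2 and GCG fell in EV, so for them a positive value means a smaller fall than the mean of the other media. Signalling and early response genes all had the lower batch difference in EV, FOS at -1.81, EGR1 at -1.44, ID1 at -0.985 and SMAD7 at -0.44. ARRDC3 (1.69) and TXNIP (0.305) had the higher batch difference in EV. Among the remaining genes the interaction was 0.671 for H19, 0.921 for TFF1, 1.51 for TNNT3, 0.459 for MKI67, 0.299 for MEG3 and 0.233 for HMGCS1. It was -0.62 for CPNE4, -0.611 for LINC02593, -0.854 for NXPH4, -1.04 for MIAT, -0.428 for FN1 and -0.442 for DDIT3.

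One library stood apart from the other 3 of its group in 6 of the 84 groups of 4 examined, all in batch 1 of the other media, judged by the gap to the nearest library divided by the range. Chance gives such a gap in about 1 of 20 groups. For H19 in WT batch 1 the ratio was 0.953, with 1 library at 99.6 CPM and the others at 159 to 162 CPM. LINC02593 in WT batch 1 had 0.866, with 1 library at 4.13 CPM against 3.51 to 3.59 CPM. In MUT batch 1 the ratio was 0.894 for ANXA2, 0.89 for NEUROD1, 0.903 for GLP1R and 0.948 for HLA-B. No EV group has 4 libraries, so none of the EV values could be examined this way.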

How the results depend on the processing

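The EV comparison had 11977 entries past the test, and over 18 alternatives the count ran from 6975, when tested against a fold of 1.2, to 13556 with limma voom. Leaving out 1 library gave 10679 to 11678 for EV, 12075 to 13024 for WT, 9216 to 10893 for MUT and 5633 to 7115 for the interaction. Over 2-fold, 1807 entries passed, and 1167 when at least 1 CPM was required in 3 libraries. The split into higher and lower was 6326 and 5632 with total library size, and 5796 and 6081 with GC and length offsets.

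Of 175 named genes, 160 kept call and direction throughout. ABCC8, from -0.08589 to 0.02858 when a library was left out, read 0.01495 with the replicate block, 0.2415 with the GC and length offsets (adjusted p = 0.000579), 0.01393 without EV batch 1 library 2 and 0.02858 without EV batch 2 library 1. HLA-B read -0.3502 with the block and -0.1837 to 0.6351 when a library was left out, the lowest without EV batch 2 library 1. With the GC and length offsets KCNQ1OT1 read 0.06086, NEUROD1 -0.006567, SLC2A2 -0.08695 and MEG3 0.2331 (adjusted p = 0.000391). SREBF1 and DDIT3 kept their calls there at -0.4352 and -0.5514, and CD24 lost its call at 0.0502 (adjusted p = 0.281). The cause was not tested. GLP1R lost its call with DESeq2 (adjusted p = 0.0614) and without 4 of the 6 EV libraries in turn. INS read 0.1391 to 0.3686 when a library was left out. EGR1 ranged from 1.826 to 2.621 on the log2 scale when a library was left out.

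The replicate block called 10115 entries in EV, 12072 in WT, 10222 in MUT and 6467 in the interaction. Numbers 2 and 3 occur in both EV batches, and deviations of same-numbered libraries correlated at 0.0463 and 0.0126 over genes. From 3 libraries a batch, such values cannot decide whether same-numbered libraries share more than a number.

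Genes under about 1 CPM, such as GCG, NEFL and HLA-B, rest on few counts. With 3 libraries a batch, small differences in variable genes such as INS were not resolved, and what else differed between batches cannot be told apart from them.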

Other observations

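Autophagy and lysosome genes were higher in 21 of 40 cases and lower in 5. WIPI1, which binds the forming autophagosome, rose by 1.15 ± 0.12 log2, while ULK1, the kinase that starts autophagy, fell from 209 ± 8.32 to 105 ± 7.4 CPM (mean ± SD, n = 3). Of 30 neuronal and synaptic genes 14 rose and 8 fell, among them the ubiquitin hydrolase UCHL1 (0.82 ± 0.043 log2) and the tubulin TUBB3 (0.73 ± 0.057 log2) on the higher side and the synaptic adhesion gene NLGN2 (-0.91 ± 0.054 log2) on the lower side. Metallothioneins and zinc transporters rose in 7 of 14 cases and fell in 1. SLC30A1, the zinc exporter of the plasma membrane, rose by 1.02 ± 0.11 log2. BCL2 family and apoptosis genes were divided, 8 of 24 higher and 6 lower, with the BH3-only gene BIK at -1.20 ± 0.19 log2.

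Median log2 fold changes by chromosome, over entries of at least 1 CPM, ran from -0.149 on chromosome 16 to 0.151 on chromosome 4, apart from -0.638 for the mitochondrial genome. Within 500 kb of H19 on either side on chromosome 11, a window chosen after its value was seen, 10 of the 23 other tested entries fell, 6 rose and 7 did not pass. On the log2 scale the lower ones were TNNT3 (-3.01), TRPM5 (-2.11), TH (-1.43), KCNQ1 (-1.21), C11orf21 (-0.91), KRTAP5-AS1 (-0.80), TSPAN32 (-0.71), MOB2 (-0.47), IGF2 (-0.38) and DUSP8 (-0.34). The higher ones were MRPL23-AS1 (0.64), ASCL2 (0.26), CTSD (0.25), CD81 (0.21), MRPL23 (0.18) and an entry without a symbol (0.53).

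p53 targets and cell-cycle inhibitors were divided, 11 of 27 tested members higher and 10 lower. PHLDA3, an AKT inhibitor induced by p53, had a log2 fold change of 2.17 and FAS, a death receptor, 1.24, while MDM2, which degrades p53, had -0.35 and BAX, an effector of apoptosis, -0.30. PHLDA3, FAS, MDM2 and BAX were picked after their values were seen. Replication-dependent histone transcripts are mostly not polyadenylated, so libraries of poly-A RNA do not measure their levels well. The 28 listed genes summed to 30.6 to 35.7 CPM in batch 1 and 25.6 to 28.6 CPM in batch 2. Their median log2 fold change was -0.69 over 12 tested members in EV and -0.00037 in WT medium, with 1 member higher and 6 lower in EV. H2BC5, which encodes a histone H2B, fell by 1.17 on the log2 scale, and its interaction was -1.82.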
